A study of Rattus norvegicus with 6 samples.

Results

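Immediate early transcription factors were examined in pancreatic islets of male Wistar rats, with arrays from 3 rats aged 3 months and 3 rats aged 12 months and no treatment named in the labels. The group was defined by name as 10 genes, *Fos*, *Fosb*, *Fosl2*, *Jun*, *Junb*, *Jund*, *Egr1*, *Atf3*, *Ier2* and *Nr4a1*, among 13903 genes that a RefSeq accession named on the array. A probe was matched for 7 of them. No probe was matched here for *Fosb*, *Fosl2* and *Jund*, which are therefore not analysed. Each of the 7 had 1 probe, and each passed the filter on dim probes, which kept probes that were well above background on 3 or more of the 6 arrays. The islets were taken out by collagenase digestion and are mixed tissue, so that in these bulk samples fewer cells of a type and less RNA per cell cannot be told apart. All 7 matched beta cell markers were well above background on every array, and so were all 7 matched acinar and all 4 matched duct markers of the surrounding exocrine pancreas. Each age was scanned separately, and the effects of age and of the scan cannot be told apart. Between 59.5% and 64.2% of probes were well above background on the 12-month arrays, against 73% to 77.4% on the 3-month arrays. The median raw signal of the negative control spots was 89.5 to 91 on the 12-month arrays and 29.5 to 31 on the 3-month arrays.

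Immediate early genes are switched on within minutes of a stimulus by transcription factors that the cell already holds, without new protein being made. FOS and JUN family proteins pair through leucine zippers to form AP-1, which binds DNA and switches on later genes. Serum response factor, with its ETS-domain partners, acts at the CArG box, and CREB acts at the cAMP response element. In beta cells, glucose and incretin hormones reach these genes through calcium, cyclic AMP and MAP kinases, and cell injury reaches several of them through stress kinases.

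Of the 10 genes, 7 have a promoter in the RefSeq table of build GRCr8, which gives 250 bases before and 50 bases after each gene start. The promoters of *Fos*, *Jun* and *Atf3* were not in it and were not searched. Those of *Fosb*, *Fosl2* and *Jund*, which had no matched probe, were searched. The windows below, each of 30 bases, lie upstream of the gene start. They are shown because they hold the letters of the cAMP response element or of its core. Capitals mark the full cAMP response element TGACGTCA in *Ier2* and *Jund*, and its core TGACG, or the same core read on the other strand, in *Junb* and *Nr4a1*.
Ier2: tggcgtttcagTGACGTCActcttactcta
Jund: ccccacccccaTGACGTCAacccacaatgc
Junb: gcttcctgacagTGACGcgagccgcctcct
Nr4a1: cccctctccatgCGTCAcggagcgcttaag
The *Ier2* window lies at chr19:40399296-40399325 on the plus strand, at positions -77 to -48 from the start. The *Jund* window lies at chr16:18769974-18770003 on the minus strand. The *Junb* window lies at chr19:40080959-40080988 and the *Nr4a1* window at chr7:134260073-134260102, both on the plus strand. The full element was found on either strand in 2 of the 7 promoters and in 1.83% of all 33469 promoters of the same length. The core TGACG, which the full element contains, was found in 5 of 7 (*Egr1*, *Ier2*, *Junb*, *Jund* and *Nr4a1*) and in 21.2% of all. *Nr4a1* held 4 copies of the core, and *Junb* held 1. Among the 7 searched promoters a CArG box was found only in that of *Egr1*, which held 2, and it was found in 1.64% of all promoters. The AP-1 site TGANTCA was found in 0 of the 7 searched promoters and in 7.33% of all. The EGR site GCGTGGGCG was found in *Jund* and in 0.544% of all. These are matches of letters within the window and no measurement of binding.

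With limma and Benjamini-Hochberg adjustment over 17941 probes, 0 of the 7 measured genes had an adjusted p under 0.05, where 8.37% of all tested probes did (5.32% higher and 3.05% lower at 12 months). At an unadjusted p under 0.05 the count was 1, and by the methods' t-test it was 0. The study asked for a more than 2-fold change at an unadjusted p under 0.05. By that threshold 1 of the 7 was called (*Fos*, higher at 12 months), against 22% of all tested probes and 10.1% called higher. That count was 0 when 12-month replicate 1, 12-month replicate 3 or 3-month replicate 3 was left out, and 3 without 12-month replicate 2. The means of 6 of 7 genes were higher at 12 months, and *Ier2* was lower. A mean above that of the 3-month arrays was seen for 42% of all tested probes, and one below it for 58%. The median difference of the 7 genes was 0.79 on the log2 scale, and the median over all tested probes was -0.17. When each array was shifted to a common 75th percentile in place of quantile normalization, the median over all probes was -0.40, that of the 7 genes was 0.50 and 5 of 7 were higher, with *Jun* changing sign.

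**Figure D1:**
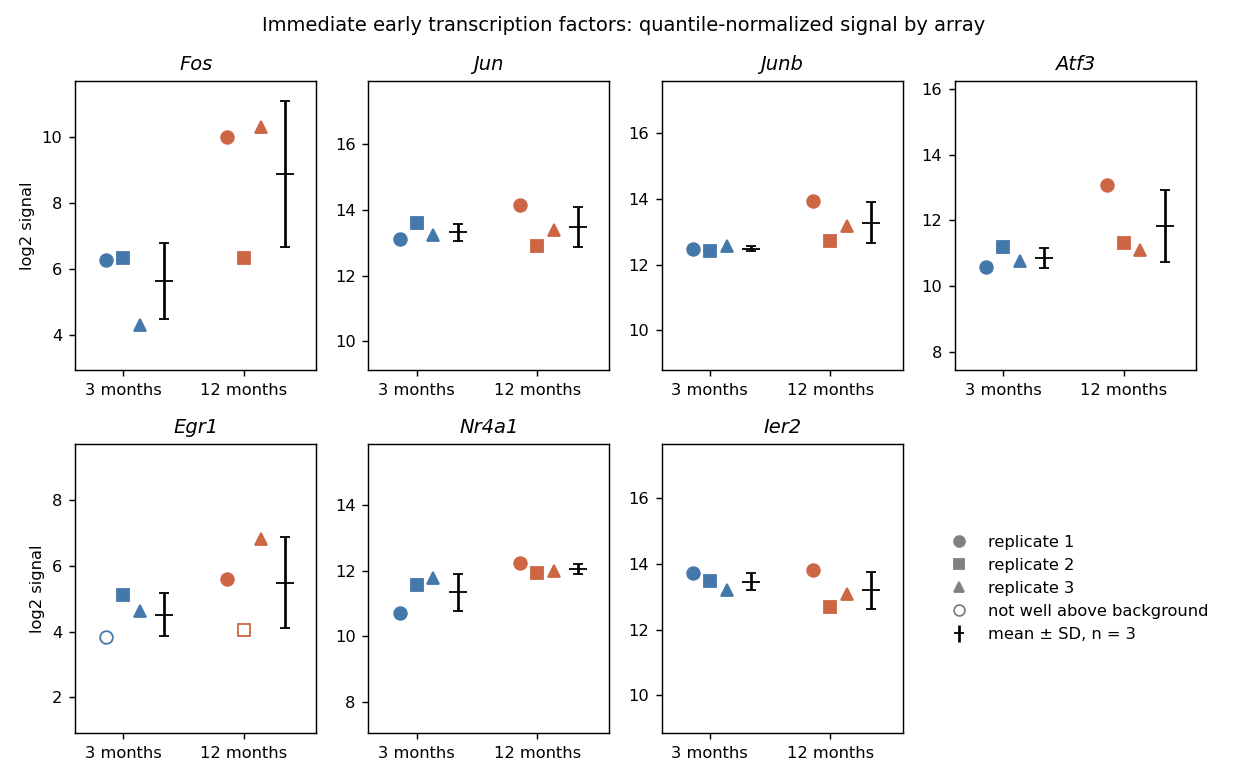
Quantile-normalized log2 signal (vertical axis) of the 7 measured genes on each 3-month and 12-month array; symbols give the replicate, open symbols a signal not well above background, and bars the mean ± SD (n = 3). The vertical span is the same in each panel; *Fos* at 12 months has 2 arrays near 10 and 1 array at the level of the 3-month arrays.

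*Fos* encodes the partner in AP-1 that cannot pair with itself and whose transcript is among the shortest-lived in the cell. Its log2 signal was 10.02, 6.33 and 10.33 on 12-month replicates 1, 2 and 3. On 3-month replicates 1, 2 and 3 it was 6.27, 6.33 and 4.31. A pair of 12-month arrays was thus far above every other array, while 12-month replicate 2 exceeded the highest 3-month array by only 0.0037. The means were 8.89 ± 2.22 (SD, n = 3) and 5.63 ± 1.15 (SD, n = 3), a difference of 3.26 (limma SE 1.13, 95% interval 0.58 to 5.94, adjusted p 0.106). This is a 9.57-fold higher geometric mean with an interval of 1.5-fold to 61.2-fold. Without 12-month replicate 2 the difference was 4.54 with an adjusted p of 0.0205 in limma, and without 12-month replicate 3 it was 2.54 with 0.239. The range over the 18 alternatives was 1.88 to 4.54, with adjusted p-values of 0.0205 to 0.446.

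*Jun* and *Junb* encode partners that bind FOS, and JUN also pairs with itself. The signal of *Junb* was 13.95, 12.71 and 13.19 on 12-month replicates 1, 2 and 3 and 12.47, 12.43 and 12.57 on the 3-month arrays. The 3-month arrays spanned only 0.14 and the groups did not overlap, as for *Fos* and *Nr4a1*. Groups that did not overlap with the 12-month arrays higher were found for 3 of the 7 genes and for 16.5% of all probes with a value on each array. The difference of *Junb* was 0.79 (limma SE 0.35, 95% interval -0.03 to 1.62, adjusted p 0.166). It was 0.46 without 12-month replicate 1, 1.08 without 12-month replicate 2 and 0.50 with the 75th percentile shift. *Jun* gave 14.14, 12.91 and 13.40 at 12 months and 13.11, 13.62 and 13.25 at 3 months. Its highest and its lowest array were both 12-month arrays. The difference was 0.16 (limma SE 0.36, 95% interval -0.71 to 1.02, adjusted p 0.784). It was -0.15 with the 75th percentile shift and -0.18 without 12-month replicate 1.

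*Atf3* encodes a stress-induced factor of the same leucine zipper class that pairs with JUN proteins and often represses its targets. It gave 13.09, 11.32 and 11.10 at 12 months and 10.60, 11.19 and 10.77 at 3 months. Replicate 1 of the 12-month arrays was far above the rest, and 12-month replicate 3 lay below the highest 3-month array. The difference was 0.98 (limma SE 0.54, 95% interval -0.30 to 2.27, adjusted p 0.245). Without 12-month replicate 1 it was 0.36.

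*Egr1* encodes a zinc finger factor that is induced by MAP kinases through serum response factor. Its log2 signal was 5.60, 4.04 and 6.81 at 12 months and 3.83, 5.11 and 4.61 at 3 months. It was not well above background on 12-month replicate 2 and on 3-month replicate 1, so its size of change rests on signals near background. The groups overlapped. The difference was 0.97 (limma SE 0.71, 95% interval -0.72 to 2.65, adjusted p 0.366). It ran from -0.039 to 1.69 over the alternatives, and without 12-month replicate 3 it was 0.30.

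*Nr4a1* encodes NUR77, an orphan nuclear receptor of the early response. It gave 12.23, 11.93 and 11.99 at 12 months, the narrowest 12-month range of the 7 genes. At 3 months it gave 10.70, 11.57 and 11.77, with replicate 1 standing below the other two. The difference was 0.70 (limma SE 0.33, 95% interval -0.09 to 1.5, adjusted p 0.191), and without 3-month replicate 1 it was 0.38.

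*Ier2*, whose product is a small nuclear regulator, gave 13.82, 12.70 and 13.08 at 12 months and 13.71, 13.47 and 13.22 at 3 months. The highest and the lowest value were again both from 12-month arrays. The difference was -0.27 (limma SE 0.34, 95% interval -1.08 to 0.55, adjusted p 0.605) and was called in none of the 18 alternatives. It was -0.02 without 12-month replicate 2 and -0.58 without 12-month replicate 1. For *Fos*, *Junb* and *Nr4a1* the exact two-sided permutation p was 0.1, the smallest that 3 arrays against 3 allow. For the other four it was between 0.2 and 0.8.

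**Figure D2:**
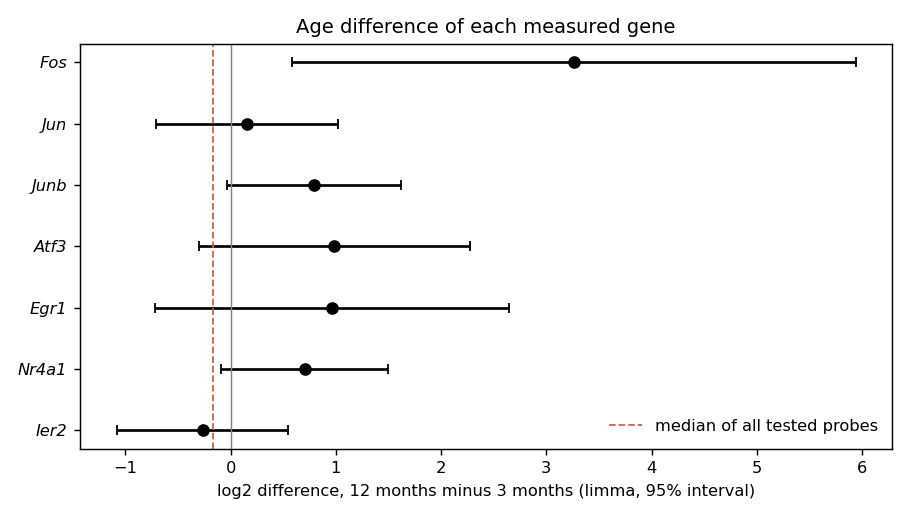
Log2 difference between 12-month and 3-month islets (horizontal axis) for each of the 7 measured genes, with the limma estimate as a point and its 95% interval as a bar; the dashed line is the median of all tested probes, -0.17. Only the interval of *Fos* lies wholly above 0, and its adjusted p was 0.106.

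For most of the 7 measured genes the arrays of 1 age differed among themselves more at 12 months than at 3 months. The SD over the 12-month arrays was the larger for 6 of the 7 genes, *Nr4a1* being the exception, and for 46.5% of all tested probes with a value on each array. Replicate 2 had the lowest 12-month signal for 6 of the 7 genes, against 31.5% of those probes, and *Atf3* was the exception. Replicate 1 had the highest 12-month signal for 5 of the 7, against 23.2%, while *Fos* and *Egr1* were highest on replicate 3. These shares describe genes measured on the same arrays and are not replicates of each other. At 3 months no array was highest or lowest for more than 4 of the 7 genes.

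Most exocrine markers were also lowest on 12-month replicate 2, namely 5 of the 7 acinar and 4 of the 4 duct genes. *Amy2a3*, an amylase, and *Pnlip*, the pancreatic lipase, were the exceptions and differed little between the 12-month arrays. On 3-month replicate 3, 4 of the 7 acinar and 3 of the 4 duct genes were lowest. The single markers named and plotted here were picked after their values were seen. *Ctrb1*, the acinar proenzyme chymotrypsinogen B, gave 17.64, 14.39 and 17.91 on 12-month replicates 1, 2 and 3 and 16.61, 17.07 and 14.02 on the 3-month arrays. It was therefore lowest at each age on the array where *Fos* was lowest, 12-month replicate 2 and 3-month replicate 3. *Krt18*, a keratin of duct epithelium, gave 12.34, 8.80 and 13.18 at 12 months and 11.80, 10.96 and 9.0 at 3 months, with the same arrays lowest. Most of the 7 immediate early genes did not have this order at 3 months. Replicate 3 was lowest of its age for 2 of them and highest for 2, and replicate 1 was lowest for 4. Over the whole acinar list of 7 genes the log2 of the summed signal, which the brightest genes dominate, was 20.16 on 12-month replicate 2, against 20.93 and 21.02 on the other 12-month arrays. It ran from 20.34 to 20.90 at 3 months. For the 4 duct genes the same measure was 12.57 on 12-month replicate 2, against 14.66 and 14.50, and ran from 13.12 to 14.32 at 3 months. Other lists were lowest on 12-month replicate 2 as well. On 12-month replicates 1, 2 and 3 endothelial markers gave 15.50, 14.73 and 15.23, and immune markers 14.78, 13.68 and 13.97. Red blood cell markers gave 16.73, 15.34 and 15.45, and beta cell markers 20.04, 20.01 and 20.19. Alpha cell markers were lowest on replicate 1, and delta cell, PP cell, mesenchymal and nerve markers on replicate 3. Over all tested probes 5.32% were higher and 3.05% lower at the adjusted threshold, 8.37% in all, and 22% passed that of the study. Differences of any p were above 0 for 42% of probes and below 0 for 58%. None of the 11 acinar and duct genes was called between the ages by either threshold. The 5 stellate and mesenchymal markers were all higher at 12 months, 1 of them at the adjusted threshold. The log2 of their summed signal was 14.63 to 15.99 at 12 months and 13.25 to 14.05 at 3 months. The 5 tested nerve and Schwann cell markers were all lower at 12 months, 2 of them at the adjusted threshold (*Prph* and *Sox10*, the second without 1 array at 3 months), with 10.62 to 11.16 against 11.65 to 12.83 over the 4 measured on each array. Of the 7 beta cell markers 5 were higher and 2 lower at 12 months. At the adjusted threshold in limma 2 of the 7 rose, the glucose transporter gene *Slc2a2* by 4.11 and the zinc transporter gene *Slc30a8* by 3.71. The insulin genes *Ins1* and *Ins2* differed by 0.10 and -0.12, and *Nkx6-1* by -0.22. The log2 of the summed beta cell signal was 20.01 to 20.19 at 12 months and 19.66 to 19.89 at 3 months. The part of these cell types in the values of the immediate early genes was not tested.

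**Figure D3:**
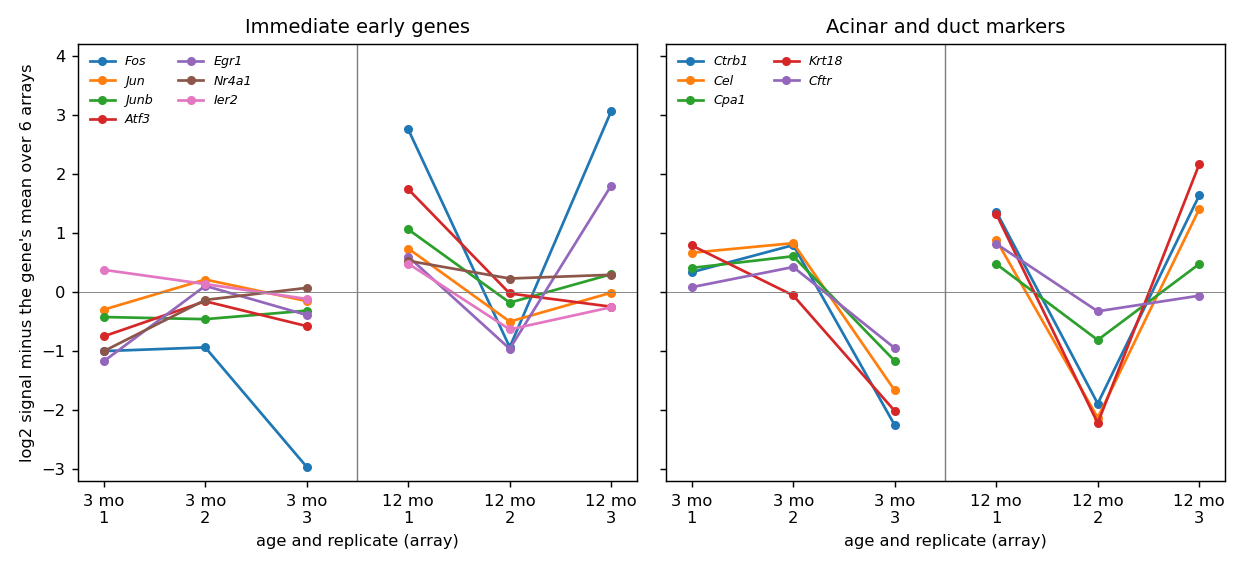
Log2 signal on each array (horizontal axis: age and replicate) minus the gene's own mean over the 6 arrays (vertical axis), for the 7 measured genes on the left and 5 acinar or duct markers on the right; lines only join the points of a gene and replicates have no order. The 5 markers were picked after their values were seen, from 7 acinar and 4 duct genes tested. *Amy2a3* and *Pnlip*, which were not lowest on 12-month replicate 2, are not plotted. On 12-month replicate 2 *Fos*, *Ctrb1* and *Krt18* all fall below their means while they lie above them on the other 12-month arrays.

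The genes with the pattern most like the group were sought among 9076 named genes well above background on all arrays, by Pearson correlation over the 6 arrays with the mean of the 6 measured genes that were so too. Each of the 6 was centred on its own mean but not scaled. *Fos*, with the widest spread, therefore weighs most in that mean. The closest were *Ctla2a* (r = 0.988), *Prss2* (r = 0.976), *Hes1* (r = 0.966), *Glis2* (r = 0.955) and *Zfp36* (r = 0.954). *Prss2* encodes an acinar trypsinogen. *Hes1* and *Zfp36* belong to the lists of other early genes, the first as a transcriptional repressor and the second as a protein that promotes decay of unstable mRNAs. None of the 5 passed the adjusted threshold. These coefficients describe 6 arrays of 2 ages and were the highest of 9076, so no p is given. Among the 7 genes themselves, *Junb* and *Atf3* were the closest pair over the 6 arrays (r = 0.889), and *Ier2* and *Nr4a1* were the least alike (r = -0.33).

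The wider early response was followed in lists of other early transcription factors and of early effectors. Of 37 other transcription factors 30 were tested, 4 had no matched probe and 3 lay below the filter. By limma 0 passed the adjusted threshold, 6 had an unadjusted p under 0.05, and 4 were called higher and 1 lower at the threshold of the study, with a median difference of 0.19. Over all tested probes 8.37% passed the adjusted threshold and 22% that of the study. *Crem* was counted by the brighter of its 2 probes, which differed by 0.15. Its other probe differed by 2.05, with an unadjusted p of 0.0032 in limma, and was past both thresholds. *Myc* had the largest difference, 3.79 (limma SE 0.99, adjusted p 0.0619), and 2 of its 3-month signals were well above background. With normexp background correction it was 1.94 and passed (adjusted p 0.0385), as it did without 3-month replicate 2 (0.0274). *Klf2*, a Krüppel-like factor abundant in endothelium, gave 9.16, 7.18 and 8.81 at 12 months and 6.38, 5.99 and 3.73 at 3 months, so that its lowest array at each age was also that of *Fos*. Its difference was 3.01 (limma SE 0.81, adjusted p 0.0658, and 0.0421 without 12-month replicate 2). *Per1*, a clock gene that CREB also drives, differed by 2.29 (limma SE 0.72, adjusted p 0.0889), with 2 signals of each age well above background. It was 0.98 with normexp, and it passed without 12-month replicate 2 (3.08, adjusted p 0.0225).

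The paralogues of *Egr1* and *Nr4a1*, picked out after their values were seen, did not share a direction. *Egr3* gave 6.76, 7.60 and 6.65 at 12 months and 8.51, 8.52 and 10.15 at 3 months. Each 12-month array was below each 3-month array, as for 22.7% of all probes, with a difference of -2.06 (limma SE 0.52, adjusted p 0.0565, and 0.0472 without 12-month replicate 2). *Egr2* differed by -0.02 and *Egr4* by 1.59, both with overlapping groups. Only 2 of the *Egr4* signals of each age were well above background, so its size of change rests on signals near background. *Nr4a2* differed by 0.11. *Nr4a3* had no 12-month signal well above background, and its groups overlapped. Whether these paralogues differ from *Egr1* and *Nr4a1* in their response to age was not tested.

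Of 34 early effectors 30 were tested, with 2 unmatched and 2 below the filter. At the adjusted threshold 3 were higher and 2 lower at 12 months, against 8.37% of all tested probes in either direction, and the median difference was 0.56. *Gem*, a small GTPase that restrains voltage-gated calcium channels, rose by 2.87 (limma SE 0.49, adjusted p 0.022), from 8.01, 7.95 and 6.58 at 3 months to 10.27, 11.02 and 9.88 at 12 months. Unlike *Fos*, it was highest on 12-month replicate 2. *Plk2*, a kinase of the stress response, rose by 2.12 (limma SE 0.50, adjusted p 0.0498), and *Sgk1*, a kinase induced by serum and glucocorticoids, by 1.32 (limma SE 0.31, adjusted p 0.0478). *Socs3*, the cytokine-induced brake on JAK-STAT signalling, fell by 1.27 (limma SE 0.26, adjusted p 0.0368). *Vgf*, the precursor of secreted granule peptides, fell by 1.04 (limma SE 0.23, adjusted p 0.044). *Rgs2*, which limits G protein signalling, had the order of *Fos* over the 12-month arrays, with 9.34, 7.17 and 9.80, and differed by 1.81 (limma SE 0.66, adjusted p 0.118). Without 12-month replicate 2 it passed (2.61, adjusted p 0.0131). *Sik1* and *Pim1* had no 12-month signal well above background and passed the filter only through their 3-month signals, so no fold is given for them. With 1 array left out, *Gem* passed the adjusted threshold in 3 of 6 fits, *Plk2*, *Socs3* and *Vgf* in 1 of 6 each and *Sgk1* in 0 of 6. Without 12-month replicate 1 the adjusted p in limma was 0.0813 for *Gem* and between 0.13 and 0.163 for the other four. *Gem* was also lost without 12-month replicate 3 (0.0545) and without 3-month replicate 1 (0.0611). *Plk2* passed only without 3-month replicate 2 (0.049), and *Socs3* (0.0486) and *Vgf* (0.0447) only without 12-month replicate 2.

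Upstream regulators were taken as a further list, and whether their share of called genes differs from those of the other lists was not tested. Of 27, 9 had no matched probe, 3 were below the filter and 15 were tested. At the adjusted threshold 3 rose and 0 fell, and at the threshold of the study 5 were higher and 0 lower, with a median difference of 0.28. Over all tested probes 5.32% rose at the first threshold and 10.1% were higher at the second. *Atf2*, a leucine zipper factor that pairs with JUN on promoters of early genes, rose by 3.02 (limma SE 0.28, adjusted p 0.00437), from 3.85, 3.53 and 3.17 to 6.42, 6.36 and 6.84. At 3 months 2 of its 3 signals were well above background, and it passed in 6 of 6 fits with 1 array left out. *Nab1*, a corepressor that binds EGR proteins, rose by 2.90 (limma SE 0.37, adjusted p 0.0106) with 1 of its 3-month signals well above background, and was lost without 12-month replicate 1 (adjusted p 0.0501). It passed the filter through its 12-month signals, the age at which it was higher, and it is among the 3 genes counted above. With normexp background correction, which compresses differences of dim probes, these rises were 1.17 for *Atf2* and 0.89 for *Nab1*, and both kept an adjusted p under 0.05. *Creb1*, the factor of the cAMP response element, rose by 1.21 on the brighter of its 2 probes (limma SE 0.26, adjusted p 0.0398). Its other probe differed by 0.63, with an unadjusted p of 0.14 in limma. With 1 array left out *Creb1* passed only without 3-month replicate 2 (adjusted p 0.047). *Mapk9*, a kinase that phosphorylates JUN, differed by 1.80 (limma SE 0.69, adjusted p 0.13). It was 1.15 without 12-month replicate 3, 0.92 with normexp and 0.61 with the 4 arrays whose descriptions share an ending. *Srf*, the factor of the CArG box, differed by 0.28, with overlapping groups.

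Genes that AP-1 and EGR proteins are known to act on were called by neither threshold, with 0 of 13 tested genes, 1 with an unadjusted p under 0.05 in limma and a median difference of 0.12. The largest differences were 1.03 for *Mt2A* and 0.80 for *Vegfa*, of which *Vegfa* had an unadjusted p of 0.0157 and an adjusted p of 0.0875 in limma. Heat shock genes, which also respond to cell stress, were called by neither threshold, with 0 of 10 tested. Of them 1 had an unadjusted p under 0.05 in limma (*Hsph1*, lower), and the median difference was -0.10. Another 5 of the 15 listed, *Hspa1a*, *Hspa1b*, *Hspa1l*, *Dnajb1* and *Hsf1*, had no matched probe and were not measured. Over all tested probes 8.37% were called at the adjusted threshold and 22% at that of the study. The log2 of the summed heat shock signal was 18.31 to 18.52 at 12 months and 18.18 to 18.57 at 3 months, so the ages overlapped.

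**Figure D4:**
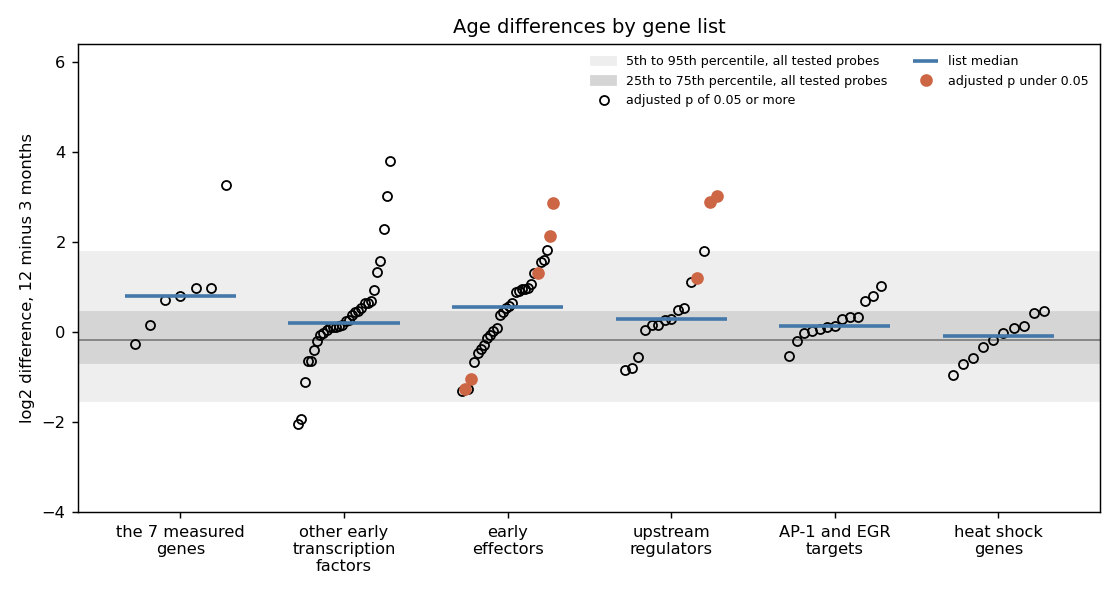
Log2 difference between 12-month and 3-month islets (vertical axis) for the tested genes of each list, with filled points past an adjusted p of 0.05 and a line at each list's median; bands give the spread of all tested probes. The 7 measured genes have a median of 0.79 and no filled point, and the filled points belong to early effectors and upstream regulators.

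**Figure D5:**
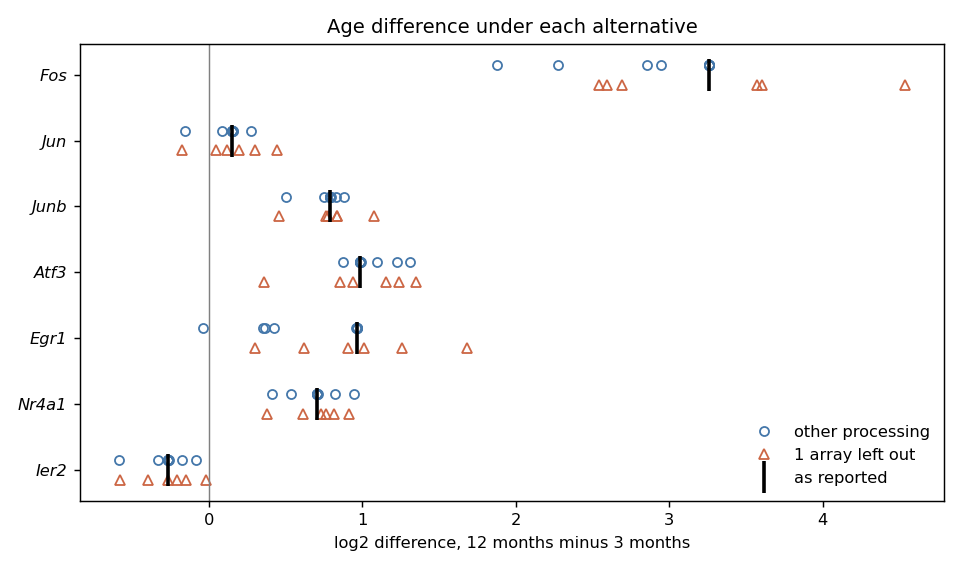
Log2 difference between 12-month and 3-month islets (horizontal axis) of each measured gene as reported, with 1 array left out and under other processing. *Fos* spans 1.88 to 4.54, and *Jun* and *Egr1* cross 0.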

How the data were processed

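Islet RNA from 3 arrays of each age was measured on 1-colour arrays. Per the file headers, the deposited scanner files hold Cy3 spot intensity from Agilent Feature Extraction 11.0.1.1, background-subtracted and not normalized between arrays, beside other quality columns of 0 or 1. The authors also deposited log2 values, quantile normalized, for 12145 probes. Here the log2 intensity was averaged over unflagged spots of a probe, quantile normalized over 24684 non-control probes, filtered (well above background on at least 3 arrays) and compared with limma 3.58.1 in R 4.3.3, two-sided, over 17941 tested probes. Of these, 17876 had a value on each array, and no spot was saturated. Names came from RefSeq accessions without versions, and a gene's brightest probe was used. Arrays have no read depth, and their number limits the precision. The series' design text gives 3 rats of each age, and p-values measure only the spread between these arrays. The third 12-month array carries no number in the labels, so its number only names it. The members and the gene lists were chosen with earlier results of these data known. From each list the text names every gene past the adjusted threshold and the 3 largest differences each way at the study's threshold; others were chosen after their values were seen. Simulated data were used to test the model fit. Alternatives were the 75th percentile shift, normexp on median signals (offset 50), the authors' values, other filters, a variance trend, replicate blocks, 4 arrays whose descriptions share an ending, the methods' t-test unpaired and paired, leaving out single arrays and the mean over a gene's probes.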

Additional observations from a re-analysis of the deposited data

How the results depend on the processing

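The count of measured genes past the adjusted threshold was 0 in limma and in each alternative but 1; with 1 array left out it ran from 0 to 1, the 1 being *Fos* without 12-month replicate 2. An unadjusted p under 0.05 was seen for 1 gene as reported, for 3 with a variance trend and for 0 with the methods' t-test. By the study's threshold 1 gene was called as reported and 0 with the replicate block of the 2 numbered pairs, with the 4 arrays whose descriptions share an ending, with the methods' t-test and with the paired t-test, and it ran from 0 to 3 with 1 array left out. Of the other early genes 15 were called by that threshold, 9 with the methods' t-test and 4 with the paired t-test, and the count ran from 11 to 17 with 1 array left out. *Jun* changed sign to -0.15 with the 75th percentile shift and, with 1 array left out, ran from -0.18 (12-month replicate 1 absent) to 0.44, and *Egr1* changed to -0.039 with the 4 arrays; neither passed a threshold as reported, and without 12-month replicate 2 *Egr1* (1.69) and *Junb* (1.08) passed that of the study. Of the other early transcription factors and effectors 5 passed the adjusted threshold as reported, 9 with normexp or a variance trend, 1 with the methods' t-test, 0 with either replicate block, the paired t-test or the 4 arrays. Leaving out single arrays gave between 0 and 7. By the methods' t-test *Gem*, *Plk2*, *Sgk1*, *Socs3*, *Vgf*, *Creb1* and *Nab1* lost the adjusted call (adjusted p 0.055 to 0.134). For none of these changes was the cause tested. With normexp the other early genes split into 9 higher and 1 lower, against 10 and 5. The 15 and the 5 include *Sik1* and *Pim1*, which passed the filter only through their 3-month signals, where they were higher. With normexp these 2 genes differed by -0.0035 and -0.20.

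The main fit did not pair the arrays by the numbers in the labels. Deviations from the age means correlated at -0.01 for number 1, -0.31 for number 2 and -0.26 for the third pair, formed by elimination. With so few arrays these correlations cannot show whether the samples were handled in pairs. The study's supplement gives p-values from a paired t-test, which is among the alternatives here. With the replicate block of 3 pairs 1 gene passed the study's threshold and 0 the adjusted one. Each measured gene has 1 probe, so the mean over probes leaves its values unchanged. No block for the scan was possible with each age scanned apart. Fewer probes were well above background at 12 months, which limits dim genes such as *Egr1*.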
